A study of Mus musculus with 7 samples.

Results

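Cytosolic ribosomal protein genes were taken as the rows of the deposited expression table whose gene symbol is Rpl or Rps followed by a number, with an optional letter or paralog ending. This rule gave 78 genes of the 56440 gene models in the table, 46 named for the large ribosomal subunit and 32 for the small one. It uses names only, so it left out ribosomal proteins with other names (Rplp0, Rplp1, Rplp2, Rpsa, Fau and Rack1 among them) and joined rows that name another symbol first (those of Rpl13, Rpl13a and Rpl36al among them). Of the 78 genes, 74 (42 large, 32 small) had a normalised read count of at least 10 in at least 3 libraries and were tested. The other 4 were Rpl10l, Rpl3l, Rpl39l and Rpl32l.

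Mouse mammary glands were taken on day 2 of lactation, the cells were sorted by FACS, and RNA was sequenced from the fraction whose titles mark it as basal. The a3a6KO group (3 libraries) carried a knockout label for integrins α3 and α6 together and a title marking them Blg positive. The Ctrl group (4 libraries) had a title marking them Blg negative. In what is known of the study, Blg refers to a Cre recombinase under the beta-lactoglobulin promoter of milk-producing luminal cells, so that the deletion was meant for the luminal neighbours of the cells sequenced here. Every mutant carried it and no control did, and the transgene and the integrin loss therefore cannot be told apart. The sources used here give no strain, age or sorting markers, and the labels do not say whether the libraries of a group came from separate animals, so p-values measure the spread between these libraries.

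The ribosome is built from ribosomal RNA and a fixed set of proteins, most of them present in a single copy per ribosome, and the large subunit forms peptide bonds while the small subunit reads the mRNA. Most mammalian ribosomal protein mRNAs begin with a terminal oligopyrimidine (TOP) tract, a cytosine followed by a run of pyrimidines at the very 5′ end, through which mTORC1 and LARP1 control their translation. The genome also holds many processed pseudogenes of these genes, which are intronless copies that resemble the mature mRNA. The lactating mammary gland makes milk protein in luminal cells, while basal cells contract to eject it.

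The deposited values are gene counts divided by a size factor for each library, here called normalised read counts. They correspond to 18454773, 10861835 and 9368418 reads in a3a6KO replicates 1 to 3 and to 14480615 to 21548279 reads in the Ctrl libraries. All 10 basal and myoepithelial markers (Krt5, Krt14, Acta2, Trp63 and others) were detected. Itga3 and Itga6 were not lower in the mutants beyond the spread, at a log2 fold change of 0.07 ± 0.21 (SE) for Itga3 and −0.10 ± 0.15 (SE) for Itga6 (limma adjusted p = 0.955 and 0.918), and counts over whole genes cannot show the loss of an exon. Markers of other cells stood at different levels, with none past the adjusted threshold. The summed endothelial markers ran from 9091 to 12584 in a3a6KO and from 4103 to 7026 in Ctrl, with 8 of 10 markers higher in every a3a6KO library than in every Ctrl library, against 4.0% of all genes tested. All 10 had an unadjusted limma p under 0.05, against 6.32% of all genes tested. The summed milk protein mRNAs took 0.778% to 2.90% of the normalised sum in a3a6KO libraries and 1.15% to 6.95% in Ctrl libraries. All 6 milk protein genes had a log2 fold change below 0 (median −0.99), while 49.5% of all genes tested had one above 0. None of the 6 had an unadjusted limma p under 0.05, and the groups overlapped for each. The summed red blood cell markers ran from 612 to 787 in a3a6KO and from 25.1 to 359 in Ctrl. The sums overlapped between groups for pericyte markers (2907 to 3987 in a3a6KO, 1847 to 3410.2 in Ctrl), fibroblast markers (21184 to 31479 in a3a6KO, 16789.7 to 27732 in Ctrl), luminal markers (20163 to 29097 in a3a6KO, 20299 to 40746 in Ctrl) and immune markers (407 to 900.3 in a3a6KO, 238 to 966 in Ctrl). All 8 pericyte and vascular smooth muscle markers nevertheless had a log2 fold change above 0, with a median of 0.58, against 49.5% of all genes tested. Of these 8, 3 had an unadjusted limma p under 0.05, and 1 was higher in every a3a6KO library than in every Ctrl library. The part of all these cell type markers in the results below was not tested. Fewer cells of a type and less RNA per cell cannot be told apart in bulk samples.

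The coding sequences of Rps27 and its paralog Rps27l are shown because the pair differs widely in deposited level while encoding closely related small-subunit proteins. Both were read from GENCODE M21 (GRCm38), Rps27 on the minus strand of chromosome 3 (transcript 90212671 to 90213651) and Rps27l on the plus strand of chromosome 9 (66946086 to 66949512). Capitals mark the 60 of 252 bases at which they differ, which leaves them 76.2% identical.
Rps27: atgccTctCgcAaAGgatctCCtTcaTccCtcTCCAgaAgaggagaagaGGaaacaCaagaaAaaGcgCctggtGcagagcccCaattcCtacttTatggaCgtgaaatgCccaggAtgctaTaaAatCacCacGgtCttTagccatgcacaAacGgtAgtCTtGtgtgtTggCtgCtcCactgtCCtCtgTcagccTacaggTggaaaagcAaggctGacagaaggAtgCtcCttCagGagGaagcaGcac
Rps27l: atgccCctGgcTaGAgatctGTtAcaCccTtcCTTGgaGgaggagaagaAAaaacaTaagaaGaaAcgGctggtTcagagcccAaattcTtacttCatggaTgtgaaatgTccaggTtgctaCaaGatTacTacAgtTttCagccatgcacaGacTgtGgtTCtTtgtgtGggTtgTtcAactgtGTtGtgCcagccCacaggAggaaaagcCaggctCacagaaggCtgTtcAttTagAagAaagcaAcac
Differences are spread along the whole coding sequence. Every 50-base word of the Rps27 coding sequence also occurs in a transcript of another annotated gene, with Rps27rt holding all of them, whereas 48.3% of the Rps27l words do.

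The start regions of 8 members that the results below describe are shown for the pyrimidine tract, from 40 bases before to 20 bases from the annotated start (RefSeq, GRCm38.p6). Capitals mark a tract, defined as a C followed by at least 4 bases that are each C or T and beginning within 5 bases of the annotated start. Where several beginnings met this definition, the capitals start at the one nearest the annotated start. In Rpl28, Rps6, Rps9 and Rps27 the same run of pyrimidines therefore begins before the capitals.
Rpl22l1 (chr3:28805468-28805527, plus strand): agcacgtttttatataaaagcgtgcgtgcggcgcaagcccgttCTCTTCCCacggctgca
Rpl28 (chr7:4792925-4792984, plus strand): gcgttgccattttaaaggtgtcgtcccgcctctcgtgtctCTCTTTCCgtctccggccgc
Rps6 (chr4:86857348-86857407, minus strand): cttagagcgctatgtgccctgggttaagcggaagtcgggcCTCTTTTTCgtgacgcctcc
Rps9 (chr7:3704001-3704060, plus strand): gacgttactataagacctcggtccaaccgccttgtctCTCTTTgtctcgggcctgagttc
Rps27 (chr3:90213629-90213688, minus strand): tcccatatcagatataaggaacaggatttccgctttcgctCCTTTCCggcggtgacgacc
Rps27l (chr9:66946046-66946105, plus strand): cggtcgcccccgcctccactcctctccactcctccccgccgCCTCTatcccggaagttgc
Rpl22 (chr4:152325686-152325745, plus strand): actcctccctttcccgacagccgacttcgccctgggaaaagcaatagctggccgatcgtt
Rps3 (chr7:99483690-99483749, minus strand): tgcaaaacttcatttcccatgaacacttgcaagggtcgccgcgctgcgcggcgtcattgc
Rpl22 and Rps3 are shown as windows with no such tract, which says only that these letters are absent here. The windows of Rpl5 and Rps12, also described below but not shown, held no such tract either. The 8 windows shown do not give its frequency. RefSeq windows of 250 bases before to 50 bases after the start were found for 59 of the 78 genes, as 71 promoters. A tract beginning exactly at the annotated start was present in 18.3% of these 71 promoters and in 2.51% of all 32851 promoters, and one beginning within 5 bases of it in 42.3% and 18.3%. A tract counted at the start may continue pyrimidines that precede it. Searched over both strands of the whole window, the ETS-type letters CCGGAAG were in 35.2% of the members' promoters and 8.86% of all promoters, AAGATGG (a YY1-type motif) in 15.5% and 6.34%, and TATAAA in 9.86% and 13.6%. The motifs were counted separately, so a promoter may be in more than one count.

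The deposited levels of the 74 genes spanned a wide range although their proteins are needed in like amounts. The mean normalised read count over the 7 libraries ran from 28.6 for Rps12, a small-subunit protein, to 7274 for Rpl4, a large-subunit protein near the peptide exit tunnel, with a median of 610.3. Divided by coding length, which leaves out the untranslated ends, the 73 tested genes with an annotated coding sequence ran from 72.1 per kb for Rps12 to 18588 per kb for Rpl41, whose coding sequence is only 75 bases. The next highest was Rpl7, at 6851 per kb. The levels of the genes at the bottom were low in every library. Rps12 had normalised read counts of 19.9, 22.4 and 32.0 in a3a6KO and 38.2, 29.1, 26.6 and 31.8 in Ctrl. Rpl38, a large-subunit protein known in the mouse for its part in translating Hox mRNAs, had 88.7, 149 and 117 in a3a6KO and 87.4, 109, 117 and 136 in Ctrl. The groups overlapped for both genes.

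Measured over coding sequences, the level was lower for genes whose sequence also occurs in other transcripts, and measured over whole transcripts it showed little relation. Of the 73 genes, 28 had every 50-base word of their coding sequence in a transcript of another gene and 12 had fewer than 50%. The median level was 599 per kb of coding length in the 28 and 4219 per kb in the 12, with 1792 in the 20 genes from 50% to 90% and 1617 in the 13 from 90% to under 100%. Rps3 shared 8.09% and stood at 6306, and Rpl4 shared 20.3% and stood at 5787. Rps12, all of whose words are in Rps12l1, was the lowest, and Rpl12, Rpl5, Rpl28, Rps27a and Rpl11, each fully shared, stood at 398 to 429 per kb. Rpl37, with 82.2% of its words shared, stood in the same range at 425 per kb. Rpl41, Rpl15 and Rps6 were exceptions, fully shared and yet at 18588, 3381 and 2894 per kb. Across genes, Spearman's rho between the level per kb and the shared percentage was −0.58 (73 genes, −0.63 without Rpl41).

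The size of this relation depended on how sharing and length were measured, and the coding sequence was adopted after the values were seen, because annotated ends of several transcripts were long (3706 bases for Rps20, which codes in 357). Measured over whole transcripts, with the level per kb of transcript, rho was −0.09. With sharing over the whole transcript and the level per kb of coding length it was −0.31, and with sharing over the coding sequence and the level per kb of transcript −0.53. Genes are not independent replicates, and the rule by which the authors' counting treated reads that map to several places is not named in the sources used here, and its part in these levels was not tested. A ratio between groups for the same gene compares like with like only if such reads were handled alike in every library.

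**Figure D1:**
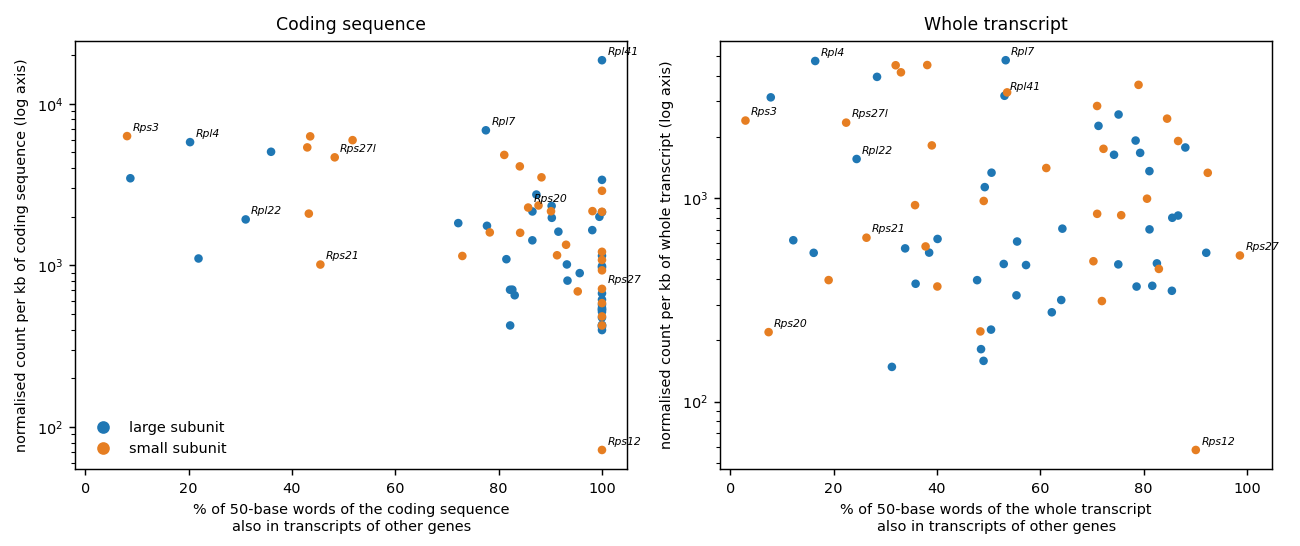
Normalised read count per kb (log axis, mean of 7 libraries) of 72 of the 73 tested genes with a coding sequence, against the percentage of their 50-base words found in transcripts of other genes, over the coding sequence (left) and over the whole transcript (right). Each point is a gene. Low points gather at 100% on the left, where rho over all 73 genes was −0.58, while the right panel shows little trend, with rho of −0.09.

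Some pseudogene rows of the table held as many reads as the gene itself. GENCODE lists 1031 pseudogenes that share a 50-base word with a coding sequence of the 78 genes, and 18 rows of the table overlapped one of them by at least 50% both ways on the same strand, of which 11 passed the filter. With both ends required to lie within 1 base, 3 rows matched, and the looser rule was chosen after that count was seen. Together the 18 rows came to 5.13%, 5.33% and 5.27% of the summed value of the 78 genes in a3a6KO replicates 1 to 3, against 4.89% to 5.22% in Ctrl. The row at Rpl14-ps1 (chromosome 7, 45324958 to 45325651) averaged 1646 in a3a6KO and 1623 in Ctrl, above Rpl14 itself at 1100.4 in a3a6KO and 1177 in Ctrl. The row of Rpl37rt (chromosome 5, 115102922 to 115110268) averaged 1038 in a3a6KO and 1013 in Ctrl, while Rpl37 averaged 122 in a3a6KO and 125 in Ctrl. These rows were named after their values were seen, and counts of a gene and its near-identical copies are uncertain.

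Against this range of levels, the differences between a3a6KO and Ctrl were small. No ribosomal protein gene passed the test of limma with Benjamini-Hochberg adjustment, and 37 of the 74 had a higher and 37 a lower fitted mean in a3a6KO, while 49.5% of all genes tested had a higher one. The median log2 fold change, a3a6KO minus Ctrl, was −0.002 for the 74 genes, with quartiles of −0.10 and 0.08, and −0.004 for all 16889 genes tested, with quartiles of −0.20 and 0.21. The median was 0.002 for the 42 large-subunit genes and −0.016 for the 32 small-subunit genes. Of all genes 0 passed (percent called 0.0) and 6.32% had an unadjusted p under 0.05, compared with 1 of the 74 ribosomal protein genes (1.35%). The counts of all genes past the adjusted threshold were 0 with edgeR, which gave an unadjusted p under 0.05 to 1025 genes, and 72 (0.426%) with DESeq2, and neither tool called a ribosomal protein gene.

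The intervals bound how large a difference the data allow. The 95% interval of the fold change lay within 2-fold either way for 73 of the 74 genes and within 1.5-fold for 62. Over all genes tested the shares were 60.1% and 29.9%. These sets were not matched for level, and the median SE was 0.14 for the 74 genes and 0.26 for all genes tested. Rps12, the least abundant, was the gene outside the wider bound, with an interval of −1.04 to 0.35. Among the 12 genes with under 50% of shared words the median log2 fold change was −0.033, and all 12 lay within 1.5-fold. Among the 28 genes with every word shared the median was 0.056, and 20 lay within 1.5-fold. The median SE was 0.12 in the 12 and 0.18 in the 28.

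**Figure D2:**
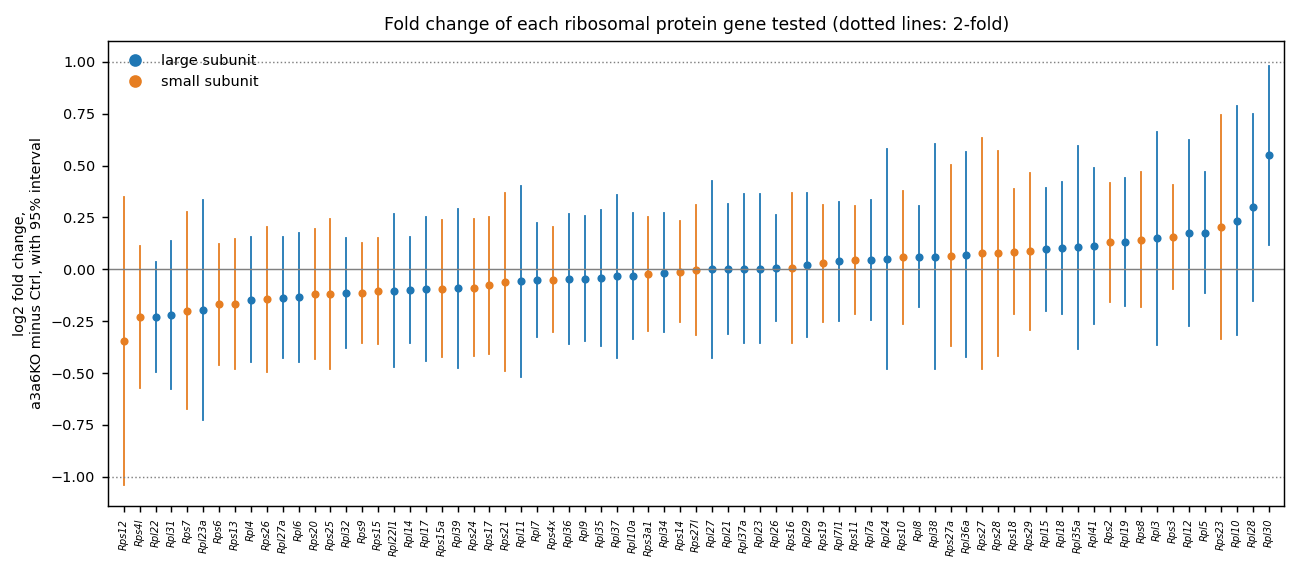
Log2 fold change, a3a6KO minus Ctrl, of 73 of the 74 tested ribosomal protein genes in order of size (points), with 95% intervals from limma (bars). Large- and small-subunit genes are mixed along the order, 72 of the intervals shown lie within the dotted 2-fold lines, and Rpl30 is the gene whose interval lies wholly above 0.

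Rpl30, a large-subunit protein that in yeast regulates its own splicing, had the smallest p of the 74. Its normalised read counts were 282, 285 and 254 in a3a6KO and 209, 202, 137 and 209.5 in Ctrl (identifier GSMG0013855, chromosome 15, 34440505 to 34443276, mm10). Every a3a6KO library lay above every Ctrl library. The means were 274 ± 16.7 (SD, n = 3) in a3a6KO and 189 ± 35.2 (SD, n = 4) in Ctrl, and the log2 fold change was 0.55 (SE 0.19, limma unadjusted p = 0.0183, adjusted p = 0.691), so the difference did not pass the test. Of its coding words 83.1% are shared with other transcripts. Ctrl replicate 3 was its lowest library, and without it the log2 fold change was 0.40.

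The groups did not overlap for 6 of the 74 genes, 2 higher and 4 lower in a3a6KO, while 7.51% of all genes tested did not overlap (4.0% higher and 3.51% lower). Rps3, a small-subunit protein at the mRNA entry channel, was the other higher one, at 4627, 5013 and 5008 in a3a6KO and 4115, 4386, 4540.0 and 4491 in Ctrl (chromosome 7, 99477896 to 99483709). Its fitted difference was 0.16 on the log2 scale (SE 0.11, limma adjusted p = 0.837). Rpl22, a large-subunit protein that binds the Epstein-Barr virus EBER RNA, was at 623, 688 and 706 in a3a6KO and 788, 775, 837 and 756 in Ctrl (chromosome 4, 152324436 to 152334082), a fitted log2 difference of −0.23 (SE 0.12, limma adjusted p = 0.789). Rps13 was at 255, 233 and 253 in a3a6KO and 257, 299, 287 and 268 in Ctrl. Rps9, a small-subunit protein, was at 2882, 2994 and 3083 in a3a6KO and 3109.7, 3300.4, 3305 and 3198 in Ctrl. Rpl14 was at 1006, 1141 and 1155 in a3a6KO and 1197, 1186, 1165 and 1160.4 in Ctrl. The last 3 had log2 fold changes of −0.17, −0.11 and −0.10 and limma adjusted p of 0.861, 0.874 and 0.892. Rpl14 was named after its values were seen.

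**Figure D3:**
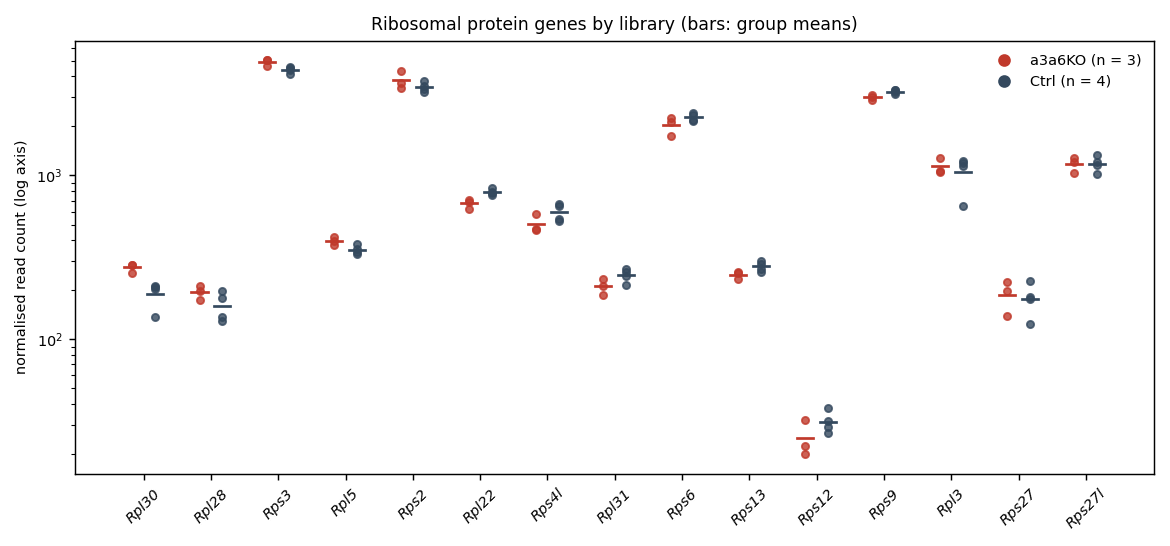
Normalised read counts (log axis) of 15 ribosomal protein genes in each library, a3a6KO left of Ctrl for each gene, with bars at the group means. The groups are separate for Rpl30, Rps3, Rpl22, Rps13 and Rps9 and overlap for the other 10 genes, and Rpl3 has 1 low Ctrl library.

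Genes known for single roles outside or within the ribosome showed no difference past the test. Rpl5 and Rpl11, which with 5S ribosomal RNA bind MDM2 and restrain it when ribosome assembly fails, are given side by side. Rpl5 had 374, 397 and 418 in a3a6KO and 340.4, 329.6, 354 and 378 in Ctrl. Rpl11 had 169.8, 293 and 217 in a3a6KO and 238, 258, 211 and 216 in Ctrl. The mutant libraries spread more widely than the controls for Rpl11, with means of 227 ± 62.0 (SD, n = 3) in a3a6KO and 231 ± 21.4 (SD, n = 4) in Ctrl. Rps6, the target of S6 kinases, had 1736, 2104 and 2235 in a3a6KO and 2411, 2169, 2152 and 2328 in Ctrl, and its fitted log2 difference was −0.17 (SE 0.13). Rps19, mutated in Diamond-Blackfan anaemia, averaged 2118 ± 84.8 in a3a6KO (SD, n = 3) and 2084 ± 216 in Ctrl (SD, n = 4). Rpl10, which joins the large subunit late in its assembly, had 374, 393 and 662 in a3a6KO and 424, 390.2, 291 and 483 in Ctrl. Its highest value came from a3a6KO replicate 3 alone, and without that library its log2 fold change was −0.03 in place of 0.24. Rpl3, near the peptidyl transferase centre, had 1048, 1065 and 1279 in a3a6KO and 1212, 1191, 646 and 1138 in Ctrl, with Ctrl replicate 3 far below the rest, and without it the log2 fold change was −0.07 in place of 0.15. Rpl23, another protein that binds MDM2, averaged 597 ± 10.5 in a3a6KO (SD, n = 3) and 603 ± 113 in Ctrl (SD, n = 4).

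The 4 genes that were not tested were at or near 0. Rpl10l, known from the testis, was at 0 in all 7 libraries. Rpl3l, known from striated muscle, was at 0 in every a3a6KO library and at 0.757 in Ctrl replicate 4, with 0 in the other Ctrl libraries. Rpl39l, also known from the testis, was at 5.27 in a3a6KO replicate 2 and at 0 elsewhere. Rpl32l, annotated as a processed pseudogene, ran from 3.96 to 7.12 in a3a6KO and from 3.01 to 8.26 in Ctrl. Of the 7 paralog pairs listed, 4 had a measured paralog.

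No measured paralog differed from its partner in ratio between the groups beyond the spread of the libraries. Rps27l, which p53 induces, was about as abundant in both groups, at 1038, 1279 and 1197 in a3a6KO and 1012, 1206, 1159 and 1329 in Ctrl. Rps27 had 139, 195 and 222 in a3a6KO and 124, 225, 176 and 181 in Ctrl. The count of Rps27l over that of Rps27 was 6.47 ± 1.04 in a3a6KO (SD, n = 3) and 6.87 ± 1.21 in Ctrl (SD, n = 4). Both coding sequences have 252 bases, so the ratio also holds per kb of coding length, and the full sharing of the Rps27 words with Rps27rt and others stands beside it. Rpl22l1 over Rpl22 was 0.369 ± 0.0233 in a3a6KO and 0.339 ± 0.0459 in Ctrl, Rpl7l1 over Rpl7 was 0.153 ± 0.0165 in a3a6KO and 0.143 ± 0.0139 in Ctrl, and Rps4l over Rps4x was 0.304 ± 0.0545 in a3a6KO and 0.344 ± 0.0498 in Ctrl. Rps4l is annotated as a transcribed processed pseudogene. A two-sided exact permutation test over the 35 possible assignments of the group labels gave p = 0.771, 0.371, 0.457 and 0.257 for the pairs in this order, and adjusted over the 4 pairs 0.771 for Rps27l and 0.610 for each of the others. The smallest p that 35 assignments allow is 0.0286, so a single pair could not pass after adjustment.

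As a group, the genes took a similar small share of every library. The 78 genes made up 0.486%, 0.568% and 0.504% of the summed normalised values in a3a6KO and 0.547%, 0.569%, 0.507% and 0.490% in Ctrl, which gave 0.519 ± 0.0435% (SD, n = 3) and 0.528 ± 0.0365% (SD, n = 4). The groups overlapped. The milk protein share differed more between libraries, and with the milk genes left out of the total the share was 0.528 ± 0.0443% in a3a6KO and 0.548 ± 0.0222% in Ctrl. The large-subunit sum over the small-subunit sum was 1.02 ± 0.0313 in a3a6KO and 1.04 ± 0.0216 in Ctrl.

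**Figure D4:**
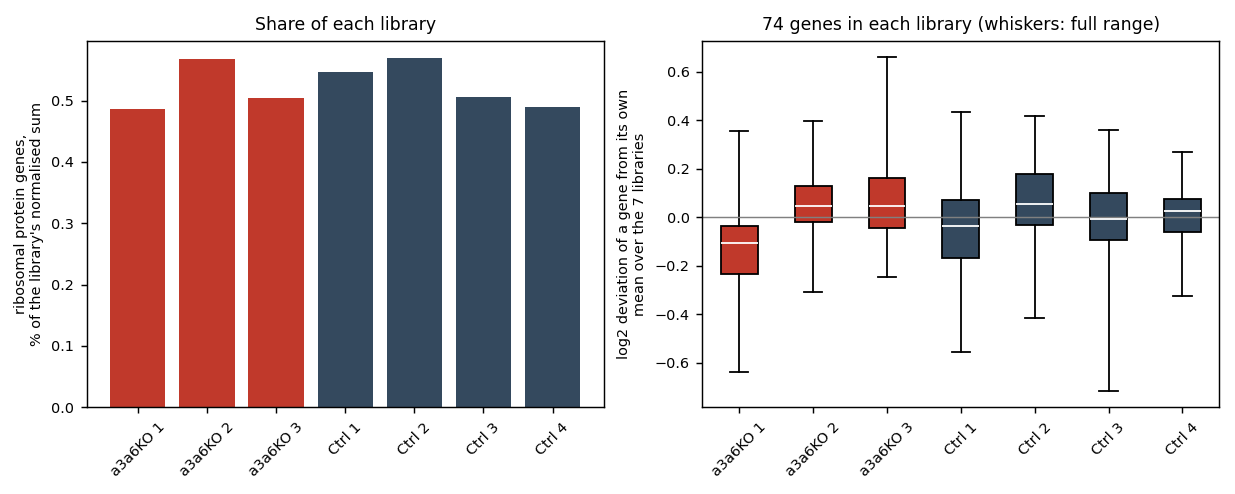
Left, summed share of the 78 ribosomal protein genes in each library's normalised values. Right, log2 deviation of each of the 74 tested genes from its own mean over the 7 libraries, as boxes (quartiles, line at the median) with whiskers over the full range. Shares run from 0.486% to 0.569% with the groups overlapping, and a3a6KO replicate 1 has the lowest median deviation.

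The spread of the members between libraries was below that of all genes in the range of levels they span. Their coefficient of variation over the 7 libraries had a median of 10.5% (quartiles 8.42% and 14.2%), against 19.8% (quartiles 13.4% and 30.6%) for the 12953 genes with means from 28.6 to 7274, members included. The sets were not matched for level within that range. Rps9 at 5.0% and Rps4x at 5.21% were among the steadiest, and Rpl10 at 27.1% and Rpl30 at 23.2% among the most variable. In the library with the lowest member levels, a3a6KO replicate 1, 13 of the 74 genes lay above their own mean, with a median deviation of −0.10 (log2), while in the other libraries the median ran from −0.04 to 0.05. Without this library the median log2 fold change of the 74 genes was 0.03.

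Members tended to deviate together, with exceptions. The correlation of a gene's deviations with the mean of the other members over the 7 libraries had a median of 0.53 and was above 0 for 63 of 74 genes, while for the 16815 other genes the correlation with the members' mean had a median of 0.00. With 7 libraries, and with members sharing each library's depth and composition, these are descriptions. The part of a3a6KO replicate 1, where 13 of the 74 genes lay above their own mean, in these correlations was not tested. Rps24 had the highest correlation, at 0.94, and Rpl7l1 the lowest, at −0.71, followed by Rps4l at −0.26. The order of deviations by coding length differed between libraries. Spearman's rho between a gene's deviation and its coding length, over 73 genes, was 0.10, −0.26 and 0.26 in a3a6KO replicates 1 to 3 and 0.49, −0.34, −0.37 and −0.06 in Ctrl replicates 1 to 4. In Ctrl replicate 1 the long members were thus relatively high, and in Ctrl replicates 2 and 3 the short ones. The same rho over 12316 other genes was −0.07, −0.07 and 0.07 in a3a6KO replicates 1 to 3 and 0.12, 0.17, −0.26 and 0.01 in Ctrl replicates 1 to 4. It had the sign of the members' rho in Ctrl replicates 1 and 3 and the opposite sign in Ctrl replicate 2. Rps23 and Rpl29 also stood apart in Ctrl replicate 3 and were named after their values were seen. Both are of middle coding length (429 and 480 bases), so they do not illustrate the order by length. Rps23 was low at 127 against at least 191 in each other Ctrl library. Rpl29 was high at 1374 against 959 to 1069.7.

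Ribosomal proteins outside the name rule gave a like picture. None of the 7 measured passed the test, 4 had a log2 fold change above 0 and 3 below, and the median was 0.05. Rpsa, which is also known as the laminin receptor precursor, had 1862, 2123 and 1968 in a3a6KO and 1586, 1687, 1616 and 1728 in Ctrl, with the groups not overlapping and a log2 fold change of 0.26 (SE 0.11, limma unadjusted p = 0.0437, adjusted p = 0.768). The stalk proteins Rplp0, Rplp1 and Rplp2, which recruit elongation factors, had log2 fold changes of 0.16, 0.05 and −0.18. Rack1, a scaffold on the small subunit, had 0.19, and Fau, made as a fusion to a ubiquitin-like protein, had −0.04.

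The genes that make or regulate ribosomes also gave no call. Of 18 elongation factor and other TOP genes, 12 had log2 fold changes above 0 and 6 below, with a median of 0.05. Pabpc1, the cytoplasmic poly(A)-binding protein, averaged 4811 in a3a6KO and 4029.7 in Ctrl and had 0.24 (SE 0.14, limma adjusted p = 0.797). Among 15 RNA polymerase I genes, 3 were above and 12 below 0, with a median of −0.08, and Taf1b, a subunit of the selectivity factor, had −0.44 (SE 0.16, limma adjusted p = 0.715). Of the other subunits of that factor named, Taf1c had 0.44 (SE 0.26, limma adjusted p = 0.798) and Taf1a −0.31 (SE 0.19, limma adjusted p = 0.804). Of 37 ribosome biogenesis factors, 17 were above and 20 below 0, with a median of −0.009. Rrp12, a processome component, had 173, 196 and 219 in a3a6KO and 397, 436, 223 and 352 in Ctrl, lower in every a3a6KO library, with −0.80 (SE 0.24, limma adjusted p = 0.595). Nop56, a box C/D snoRNP protein, averaged 1268 in a3a6KO and 917 in Ctrl and had 0.43 (SE 0.19, limma adjusted p = 0.778). The 12 genes of the Myc network had a median of 0.19, with 9 above and 3 below 0. Max, the partner of Myc, had −0.71 (SE 0.25, limma adjusted p = 0.693). Mxd3, which also pairs with Max, was at 53.9, 39.6 and 33.8 in a3a6KO and 18.1, 17.8, 25.7 and 30.3 in Ctrl, higher in every a3a6KO library, with 0.87 (SE 0.33, limma adjusted p = 0.733). Mycn, a relative of Myc, had 0.65 (SE 0.33, limma adjusted p = 0.789). The 17 genes of the mTORC1 pathway had a median of −0.07 (6 above, 11 below 0), the 27 translation initiation factors −0.03 (12 above, 15 below), the 12 snoRNA host genes 0.01 (6 above, 6 below), and 5 genes of the p53 checkpoint 0.12 (4 above, 1 below). Cdkn1a in that last list was at 3003, 1793 and 10316 in a3a6KO and at 2406 to 3864 in Ctrl, so that its log2 fold change of 0.33 rested on a3a6KO replicate 3 and was −0.39 without it. The 73 mitochondrial ribosomal protein genes had a median of −0.03, with 29 above and 44 below 0, and Mrpl47 and Mrpl11, both of the large mitochondrial subunit, had −0.62 and −0.38 (limma adjusted p = 0.76 for each).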

How the data were processed

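RNA from sorted basal cells of day 2 lactation was made into libraries by SMARTer v4, per the labels' protocols, from 3 a3a6KO and 4 Ctrl samples assigned by their genotype label. The deposited signal values are gene counts that the authors divided by a size factor per library, with DESeq2, STAR 2.4.0, FastQC, Picard, SAMtools and build mm10 named in the submitters' processing notes. No source used here gives the read counter, its use of strand or its rule for reads of several origins. Values were whole multiples of 1 step per library, so reads were recovered (99.996% of values whole within 0.01 of a read in a3a6KO replicate 1 and 100% in each other library, 9368418 to 21548279 reads per library). Even numbers made up 61.8% to 63.8% of recovered counts from 1 to 20, and the count tests took each as 1 read. The labels name no molecular identifiers.

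limma 3.58.1 (R 4.3.3), with an empirical Bayes trend, was fitted on log2(value + 1) to the 16889 genes that reached 10 in 3 or more libraries. Two-sided p-values were adjusted over all of them by Benjamini and Hochberg, with a threshold of 0.05. A fold change is the a3a6KO mean minus the Ctrl mean of log2(value + 1), so changes of low genes come out too small. On the recovered reads edgeR 4.0.16 (quasi-likelihood) called 0 genes and DESeq2 1.42.0 called 72. Paralog ratios were compared by exact permutation. Coding lengths and shared 50-base words came from 1 GENCODE M21 transcript per gene, and start regions from RefSeq GRCm38.p6. The GENCODE release is on GRCm38, the assembly that mm10 names.

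The members and gene lists were chosen with earlier results of these data known. Named genes were the 6 members of each direction with the smallest p, the 5 highest and 5 lowest in mean, 20 members of known role, the measured ribosomal proteins with other names, up to 3 genes with the smallest p per pathway list, and both integrins. Genes added from outside are said to be named after their values were seen, or stand as values beside a result. Alternatives were other pseudocounts (0.5 and 8), no filter beyond a value above 0, quantile normalization, TMM factors, library weights, both count tests, summed rows of a symbol, other totals for the share, and leaving out each library. The scope of shared words and the match of pseudogene rows were alternatives chosen after seeing the data. The transcript per gene was settled after several other choices of transcript had been tried and their values seen, and the windows searched for the pyrimidine tract were set after looking at its frequency by position. The scripts were tested on simulated counts. Results of some single genes are not reported here.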

Additional observations from a re-analysis of the deposited data

Results flagged for a closer look

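Among 71 reported results that were above 0 in Ctrl, 4 had a Ctrl library that stood apart from the other 3 by Dixon's criterion for 4 samples, and chance flags about 1 in 20. Rpl30 was at 136.8 in Ctrl replicate 3, against 202 to 209.5 in the others. Rpl3 was at 646 in the same library, against 1138 to 1212. Rpl3l was at 0.757 in Ctrl replicate 4, which is a single read, against 0 in the others. Eef1d, an elongation factor subunit, was at 1355 in Ctrl replicate 2, against 1558 to 1565.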

How the results depend on the processing

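No paired analysis was possible because the labels give the libraries no replicate numbers. No ribosomal protein gene was called under any of the alternatives run, and over all genes tested the count of calls was 0 under each of them except DESeq2, which called 72. The cause was not tested. The median log2 fold change of the members moved by less than the SD between libraries in every alternative, from −0.066 with library weights to 0.031 without a3a6KO replicate 1. Gene values not past the threshold changed sign as follows. With library weights, Rpl38 was −0.0425, Rps27 −0.146 and Itga3 −0.0569. With quantile normalization Rps19 was −0.0180 and Rpl23 −0.00913, and Rpl23 was −0.000251 with TMM factors, −0.0201 with edgeR and −0.0161 with DESeq2. Leaving out each library in turn gave log2 values of −0.119 to 0.252 for Rpl38, −0.0807 to 0.0373 for Rpl37, −0.075 to 0.188 for Rpl36a, −0.0279 to 0.0743 for Rps19, −0.0748 to 0.0797 for Rps27l, −0.0828 to 0.27 for Rps27, −0.26 to 0.131 for Rpl11, −0.0269 to 0.385 for Rpl10, −0.167 to 0.0043 for Rpl22l1, −0.067 to 0.235 for Rpl3, −0.0137 to 0.12 for Rpl7l1, −0.0753 to 0.124 for Rpl23, −0.00768 to 0.107 for Rplp1, −0.144 to 0.0984 for Fau, −0.0725 to 0.558 for Mdm2, −0.388 to 0.874 for Cdkn1a, −0.131 to 0.233 for Itga3 and −0.195 to 0.043 for the log2 ratio of Rps27l over Rps27. The other 990 values kept direction and side of the threshold, or moved by less than the spread between libraries. Rps12, the tested member with the lowest count, had the widest interval of the members, and the part of depth in this was not tested. Rpl3l, Rpl10l and Rpl39l were too low to test.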
